A study of Mus musculus with 8 samples.

Results

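The genes Gcg, Gip and Sct encode the gut hormones of the secretin-glucagon family, and Glp1r, Glp2r, Gipr, Gcgr and Sctr encode the receptors those hormones act on. They were taken by name: every probe whose gene name in the scanner files equals one of these 8 symbols was used, which gave 13 of the 55681 probes on the array, and all 8 genes were among the 23282 genes tested. Total RNA was taken from small intestine, collected from mouse embryos at E18.5. Arrays of 4 wild-type samples (Rfx6+/+, labelled control) were compared with arrays of 4 Rfx6-/- samples (labelled Rfx6 KO). The null allele was made by crossing a floxed Rfx6 line (Rfx6f/+) with CMV-Cre mice, which delete broadly, and homozygotes came from a heterozygote intercross, so the deletion is not limited to the intestine. The comparison asks which transcripts of the family depend on Rfx6, a transcription factor of endocrine cells of gut and pancreas.

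The proglucagon gene Gcg is expressed by L cells of the gut, where its precursor is cut into GLP-1 and GLP-2, and by alpha cells of the pancreas, where it is cut into glucagon. K cells make Gip, the precursor of glucose-dependent insulinotropic polypeptide, and S cells make Sct, the precursor of secretin. GLP-1 and Gip raise insulin secretion after a meal, GLP-2 promotes growth of the mucosa, and secretin drives bicarbonate secretion from the pancreas. The receptors belong to class B of the G protein-coupled receptors and signal mainly through Gs and cyclic AMP.

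The probes are what the values below rest on. The Gip probe is shown because its 60 bases span 1222 bases of chromosome 11 on mm9 (chr11:95886745-95887966, + strand), so it crosses an exon junction and reads spliced RNA; it starts at base 157 of its transcript. The Gcg probe (chr2:62312685-62312744, - strand) starts at base 933 of its transcript, and the Sct probe (chr7:148464238-148464297, - strand) at base 446; each lies in 1 unbroken stretch of the genome, and a part of each is given. Capitals in the Sct probe mark the letters AATAAA, the usual polyadenylation signal. Exon and UTR boundaries on mm9 were not used here.
Gip probe: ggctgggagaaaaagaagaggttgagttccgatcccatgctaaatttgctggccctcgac
Gcg probe, first 30 bases: gtcacaacacctggattatactaacagaag
Sct probe, last 30 bases: gttgtccttggcatcAATAAAaaaggaatt

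All 8 arrays lay on 1 slide and were read in 1 scan. Slide row 1 held control array 1 and knockout arrays 2, 3 and 4. Row 2 held control arrays 2, 3 and 4 and knockout array 1. Group and row were thus largely confounded, and a difference within a row rests on 1 array of 1 of the groups. Levels are log2 of the background-subtracted signal, less the 75th percentile of its array, so 0 is the signal that 75% of the probes do not exceed; the percentile lay between 636 and 741 scanner units before scaling. The share of probes flagged as clearly over background ranged from 57.4% to 67.1%. The presence of the labelled tissue was checked on 7 genes of small intestinal epithelium, among them Vil1, Fabp2, Cdx1 and Cdx2. All 7 were well above background on all 8 arrays. Markers of stomach, liver and exocrine pancreas were also well above background on some or all arrays, so this is no check of purity. For Rfx6 itself the level was -3.14 ± 0.40 in control (SD, n = 4) and -2.76 ± 0.56 in knockout samples (SD, n = 4), with a limma adjusted p of 0.503. Whether its probe lies in the deleted part was not determined, so this probe is no check of the groups, which are named as labelled. The labels give each sample its own number but do not name separate litters, so p-values measure the spread between these samples.

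All 3 hormone genes fell in the knockout samples, and 2 of them, Gcg and Gip, fell to the background of the array. Sct fell 2.93-fold and stayed well above background on every array. None of the 5 receptor genes passed the test. Over all genes tested, 2.59% were called lower, 2.33% higher and 4.92% either way (limma, adjusted p under 0.05). That is 602 lower and 543 higher genes, a split that median centring of the arrays turned to 253 lower and 545 higher, while the calls of the 8 genes stayed as they were. In bulk RNA, fewer hormone cells and less hormone RNA per cell cannot be told apart.

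On the control arrays, from replicate 1 to replicate 4, the Gcg signal was 2714, 2048, 2514 and 2216 scanner units, or 2.04, 1.55, 1.97 and 1.67 in scaled log2 levels. On the knockout arrays the signal was 8.35, 6.26, 5.66 and 6.04 units, or levels of -6.47, -6.78, -6.98 and -6.72. The lowest control array therefore lay far above the highest knockout array, and the knockout signals lay below that of the dimmest probe called well above background, which was between 16.0 and 35.9 units on those arrays. The mean level was 1.81 ± 0.23 in control (SD, n = 4) and -6.74 ± 0.21 in knockout samples (SD, n = 4). The difference, knockout minus control, was -8.54 on the log2 scale (SE 0.14, limma adjusted p 8.1e-09). The probe was tested because it was well above background on the control arrays. The knockout side of this SE and p is background signal. The exact permutation p was 0.0286, two-sided, the smallest that the 70 splits of 8 arrays allow. Because the knockout value is background, the fold is a bound, at least 112-fold lower for this background subtraction and floor. With normexp background correction, run with an offset of 50 units, the difference was -5.07. With the authors' matrix values it was -5.06. The bound does not hold for either of these.

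The array carries the Gcg probe at 10 separate spots, which gives a measure of its technical error. On a control array the 10 spots differed with a coefficient of variation between 4.57% and 5.50%, and the lowest spot of any control array read 1845 units. All 10 spots were well above background on each control array. On the knockout arrays 0 of 10 spots were well above background, and the highest single spot read 11.3 units, on knockout array 4. No spot of any knockout array came near the range of the control spots.

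**Figure D1:**
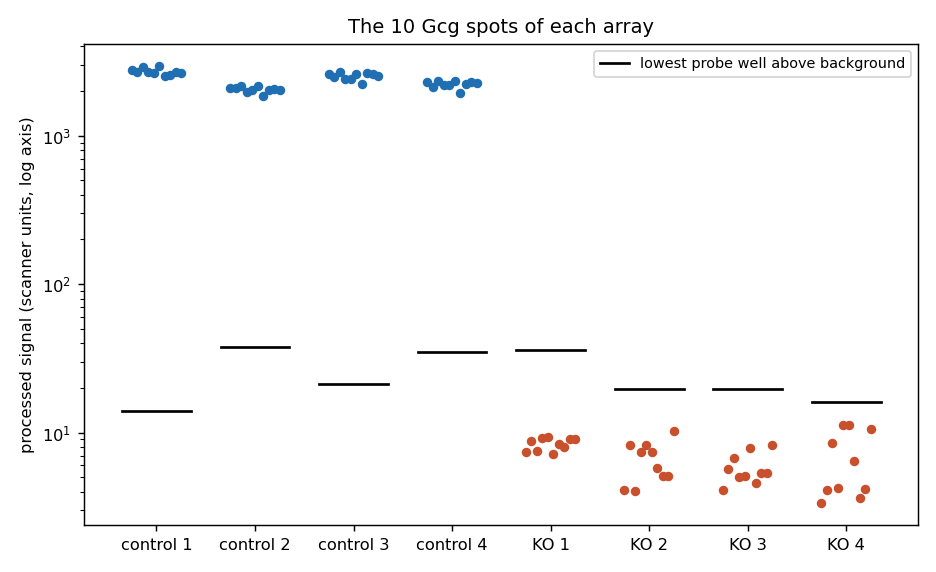
Processed signal in scanner units (log axis) of the 10 Gcg spots on each of the 8 arrays; points are spots and the black bar is the dimmest probe called well above background on that array. The control spots lie at 1845 units or above and the knockout spots at 11.3 units or below, under the bar of their own array.

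Gip was also at background in the knockout samples. Its control signals were 3946, 3409, 3521 and 3770 units, a narrow range, and its knockout signals were 9.23, 14.6, 10.6 and 6.21 units. None of the 4 knockout arrays had the probe well above background, and the order among those 4 values carries no meaning. The level was 2.44 ± 0.12 in control (SD, n = 4) and -6.16 ± 0.47 in knockout samples (SD, n = 4). The log2 difference of -8.60 (SE 0.21) had a limma adjusted p of 9.0e-08 and an exact permutation p of 0.0286. As for Gcg, the knockout side of this SE and these p-values is background signal. As a bound, for the same background subtraction and floor, Gip was at least 173-fold lower. The log2 difference was -5.48 with normexp and -5.49 with the matrix values, for which this bound does not hold. Of the 602 genes called lower, 5 were above background on none of the knockout arrays, and Gip and Gcg were 2 of these.

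Sct fell and was still detected on all 4 knockout arrays. The control arrays read 88318, 83536, 81224 and 76544 units and the knockout arrays 27304, 28825, 28660 and 30821 units. The groups did not overlap, no array of either group stood apart, and 0 gene spots were saturated. The level was 6.93 ± 0.12 in control (SD, n = 4) and 5.38 ± 0.17 in knockout samples (SD, n = 4). The log2 difference of -1.55 (SE 0.10, 95% interval -1.79 to -1.31) had a limma adjusted p of 9.7e-05 and an exact permutation p of 0.0286. As a percent change this is -65.9%, with an interval from -71.1% to -59.8%. The falls of Gcg and Gip can be set beside that of Sct within the same arrays, as a description of genes chosen after their values were seen. With the Gcg and Gip knockout values raised to the dimmest level well above background, the Gcg level minus the Sct level dropped by 5.25 log2 units. The Gip level minus the Sct level dropped by 5.88 log2 units. Both are lower bounds of the drop for this background subtraction. The knockout side of both rests on the same floor of each array, and no test is given. The difference in size is a difference of change, since the brightness of 1 probe cannot be set against that of another.

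**Figure D2:**
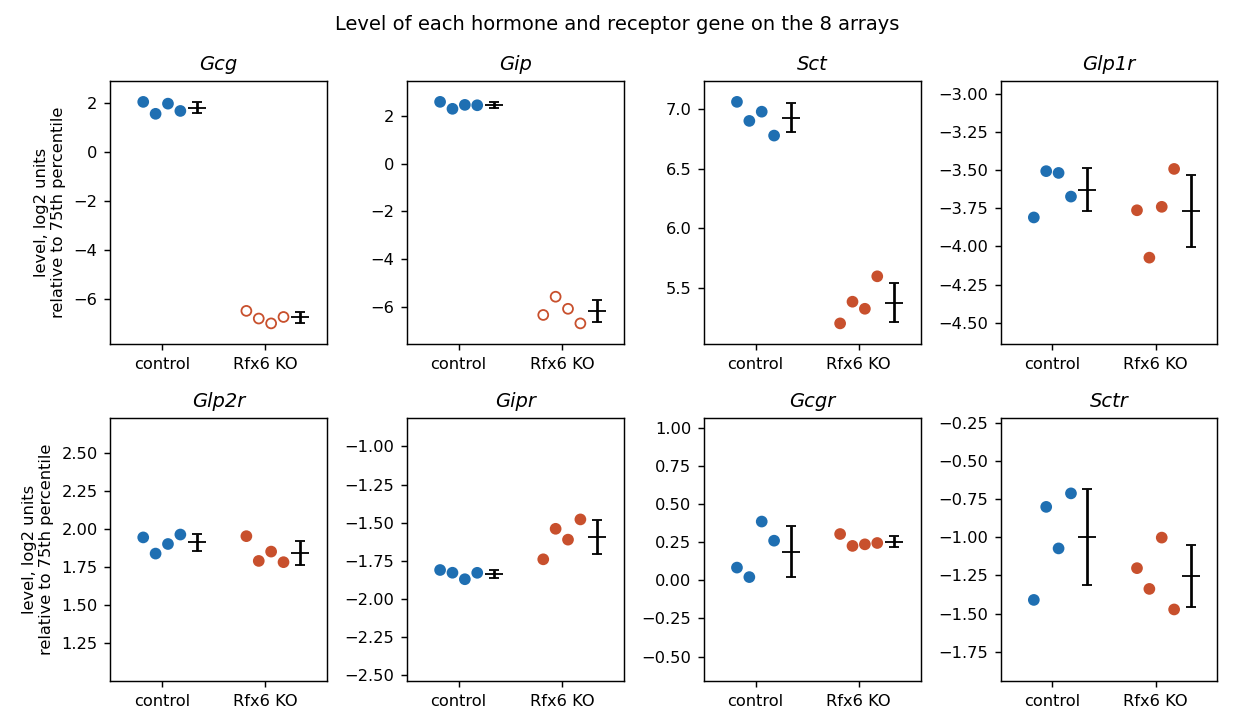
Scaled log2 level of the brightest probe of each gene on the 8 arrays, with an axis of its own range for each gene; filled points are arrays on which the probe was well above background, open points arrays on which it was not, and the black mark is the mean with its SD. Gcg, Gip and Sct do not overlap between groups, with Gcg and Gip open on all 4 knockout arrays. Of the receptors, Gipr is the 1 whose groups do not overlap. Of all genes tested, 14.6% do not overlap, in either direction.

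The incretin receptor for Gip had the lowest limma adjusted p of the receptor genes, though it did not pass the test. Gipr, read by 1 probe (chr7:19742486-19742545), stood at -1.81, -1.83, -1.87 and -1.83 on the control arrays and at -1.74, -1.54, -1.61 and -1.48 on the knockout arrays. Every knockout value was above every control value, as in 14.6% of all genes tested for either direction. The difference of 0.24 (SE 0.08) had a limma adjusted p of 0.126 and an exact permutation p of 0.0286, and as a percent change it is 18.3%, with a 95% interval from 4.50% to 33.9%. Within slide row 1, which held control array 1 and knockout arrays 2, 3 and 4, the difference was 0.27, and within row 2 it was 0.10. With the slide row as a block it was 0.18 (limma adjusted p 0.283).

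The receptor for GLP-1 was measured near the limit of the array. Its 2 probes read almost the same place, chr17:31073261-31073320 and chr17:31073256-31073315, and overlap in 55 bases, of which 3 differ. They are shown because the letters that differ, in capitals, go with probes that read differently. Counted from the 5′ end of probe 2, the changes from probe 2 to probe 1 are C8T, T11C and G17A.
Glp1r probe 1: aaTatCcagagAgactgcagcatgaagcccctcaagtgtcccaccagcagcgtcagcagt
Glp1r probe 2: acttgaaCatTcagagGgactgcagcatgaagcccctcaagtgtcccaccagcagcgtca
Probe 1 was well above background on 8 of 8 arrays, with signals from 40.9 to 61.5 units, and probe 2 on 0 of 8 arrays, with signals from 5.05 to 19.9 units. Which of the probes matches the genome of these mice was not tested. Probe 1 stood at -3.81, -3.51, -3.52 and -3.67 on control arrays, a mean of -3.63 ± 0.14 (SD, n = 4). It stood at -3.76, -4.07, -3.74 and -3.49 on knockout arrays, a mean of -3.77 ± 0.24 (SD, n = 4). The groups overlapped, and the difference of -0.14 (limma adjusted p 0.584) has a 95% interval from -0.44 to 0.16. As a percent change the interval runs from -26.1% to 11.4%. Probe 2 was not tested, since it has only a bound in both groups.

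Glp2r, the receptor through which GLP-2 acts on enteric neurons and subepithelial fibroblasts, was read by 2 probes at different ends of the transcript. Probe 1 (chr11:67519964-67520023) starts at base 4781 and stood at 1.94, 1.84, 1.90 and 1.96 on control and 1.95, 1.79, 1.85 and 1.78 on knockout arrays. The groups overlapped, and the difference was -0.07 (limma adjusted p 0.641; 95% interval -0.24 to 0.10). Probe 2 starts at base 1401, and its 60 bases span 9679 bases of the genome (chr11:67525830-67535508), so it crosses at least 1 intron.
Glp2r probe 2: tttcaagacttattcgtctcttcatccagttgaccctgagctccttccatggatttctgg
On probe 2 the level was -3.18 ± 0.15 in control (SD, n = 4) and -3.35 ± 0.18 in knockout samples (SD, n = 4). The difference was -0.17 (limma adjusted p over all probes 0.475; 95% interval -0.43 to 0.10). Both probes gave small negative differences whose intervals include 0. The 6 marker genes of enteric neurons and glia and the 5 of smooth muscle and myofibroblasts had 0 calls in either direction. These are cells that can carry this receptor. The lists had median differences of 0.05 and 0.24, against -0.05 for all genes tested, of which 4.92% were called. At that share, 0 calls in lists this short is no result about these cells.

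Gcgr, the glucagon receptor, is best known from liver. Its 1 probe (chr11:120400221-120400280) stood at 0.08, 0.02, 0.39 and 0.26 on control and 0.30, 0.23, 0.24 and 0.25 on knockout arrays. The knockout values lay inside the control range. The difference was 0.07 (limma adjusted p 0.730; 95% interval -0.15 to 0.28). Of 4 liver marker genes, Fgb (1.20, limma adjusted p 0.0032) and Ttr (0.63, limma adjusted p 0.0033) were higher on the knockout arrays, while Alb and Afp did not pass; the part of liver RNA in the Gcgr signal was not tested.

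The secretin receptor gene Sctr was read by 4 probes, and all 4 point estimates were below 0. The median difference of all probes tested was also below 0, at -0.05. The brightest (chr1:121960008-121960067) read 249, 401, 306 and 426 units on control and 322, 273, 357 and 229 units on knockout arrays. The scaled log2 difference was -0.26 (limma adjusted p 0.429; 95% interval -0.63 to 0.12). The groups overlapped widely, and the difference was 0.14 within slide row 1 and -0.34 within row 2, so its sign was not the same in both. Probe 2, which shares part of the same stretch (chr1:121960044-121960103), differed by -0.06 and probe 3 (chr1:121953023-121953082) by -0.09. Probe 4 (chr1:121943329-121943388), the dimmest, was above background on 3 of 4 control arrays and differed by -0.50, with a 95% interval from -1.15 to 0.16. Its control array 1 stood at -2.82 against -4.19 to -3.87 on the other controls, and within the row of that array the difference was -1.47, against 0.02 in the other row. On no Sctr probe did the difference pass the test.

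**Figure D3:**
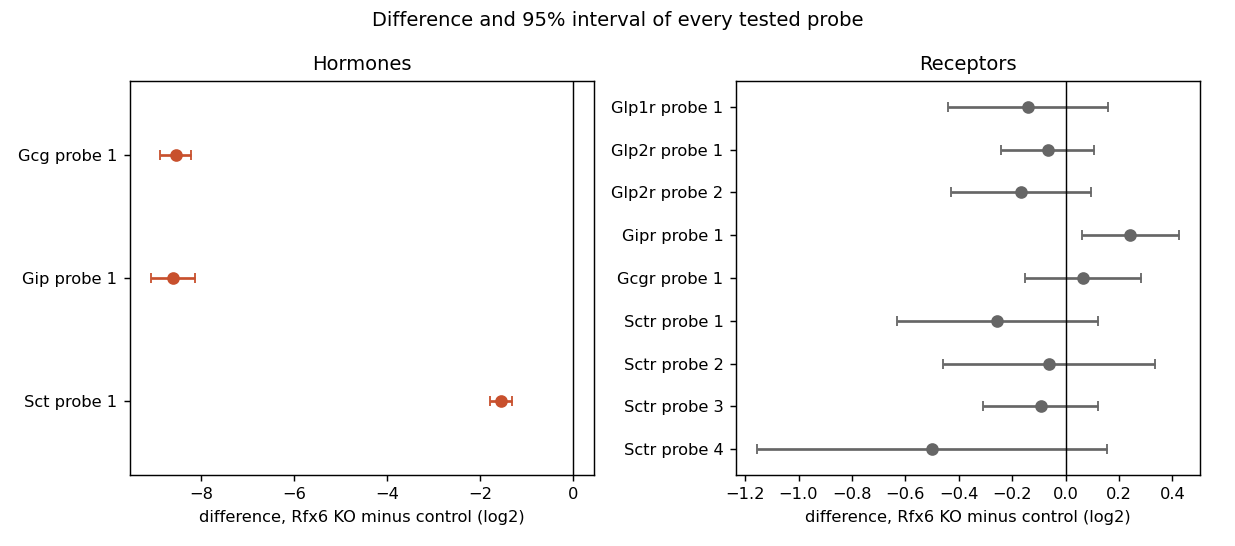
Difference between knockout and control arrays (log2, points) with its 95% interval (bars) for the 12 probes tested, hormones on the left and receptors on the right, on separate axes; red marks limma adjusted p under 0.05 over all probes. The 3 hormone probes lie far below 0, and of the 9 receptor probes only that of Gipr has an interval that leaves out 0. The intervals are not adjusted for the number of tests. Of all 23282 genes tested, 4773 had an unadjusted limma p under 0.05.

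**Figure D4:**
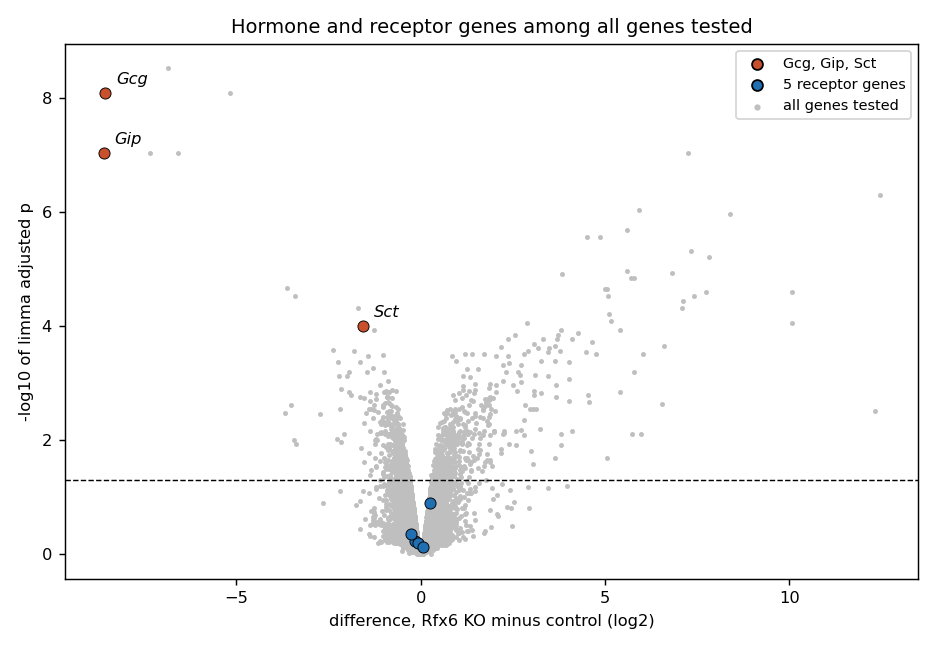
Difference between knockout and control arrays (log2, x axis) against -log10 of the limma adjusted p (y axis) for all 23282 genes; the dashed line is the threshold of 0.05. Gip and Gcg lie at the far left, with knockout values at background that give them no order, Sct lies at -1.55 above the line, and the 5 receptors lie below the line close to a difference of 0.

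Other genes of the pathway were counted from lists. The median difference of all genes tested was -0.05. Of all genes tested, 4.92% were called in either direction, the share to set beside the count of each list. At that share, 0 calls in lists this short is no result about the lists. Of the 3 other ligands of the family, Vip, Adcyap1 and Ghrh, 0 were called, with differences of 0.05, 0.38 and 0.34. Of 8 other class B receptors, 6 were measured and 0 were called; Vipr1, a receptor for VIP, differed by 0.29 and Crhr1, a receptor for corticotropin-releasing hormone, by -0.55 (limma adjusted p 0.17), with a median of 0.22. Of 17 genes of Gs and cyclic AMP signalling, 15 were measured and 0 were called, with a median of 0.11; Gnas, which encodes the stimulatory G protein subunit itself, differed by 0.01. At an unadjusted p under 0.05, 4773 genes of the whole table passed.

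Of 12 genes for processing, storing and degrading these peptides, 2 were called, both lower, and the median difference was -0.06. Mme, which encodes neprilysin, a peptidase that cleaves circulating peptides including GLP-1, stood at 1.97, 1.94, 1.81 and 1.93 on control and 0.77, 0.18, 0.90 and 0.34 on knockout arrays. It fell by 1.36 (SE 0.16, limma adjusted p 0.0020), and the groups lay well apart. Scg2, a granin of secretory granules, fell by 1.25 (SE 0.21, limma adjusted p 0.012). The convertase genes Pcsk1 and Pcsk2, whose products cut proglucagon into GLP-1 and into glucagon, differed by -0.12 and -0.14 (limma adjusted p 0.55 and 0.30), and Dpp4, which encodes the protease that inactivates GLP-1 and Gip, by -0.04. Chga and Chgb, granins found in many endocrine cells, differed by 0.26 and 0.17.

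Of 18 transcription factors known for K, L or S cells or for the promoters of these hormones, 16 were measured, 1 was lower, 2 were higher and the median difference was -0.03. Gata4, which acts on the Gip promoter, fell by 0.51 (limma adjusted p 0.040). Foxa1 and Foxa2, which act on the Gcg promoter, rose by 1.23 (limma adjusted p 0.0016) and 1.00 (limma adjusted p 0.0046). Pdx1, a regulator of Gip, differed by -1.09 (limma adjusted p 0.063), Isl1 by -0.86 (limma adjusted p 0.089) and Neurog3, the factor that starts the endocrine lineage, by 0.46 (limma adjusted p 0.082); none of these 3 passed.

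**Figure D5:**
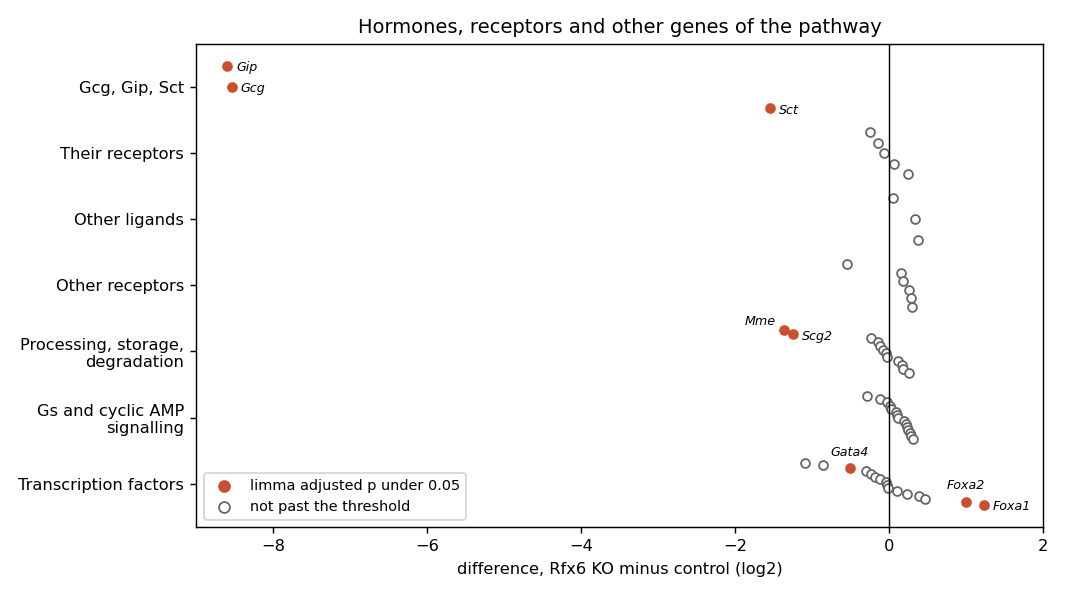
Difference between knockout and control arrays (log2, x axis) of each measured gene, by list (y axis); filled red points passed limma adjusted p under 0.05 and are named. Gcg, Gip and Sct are the called genes of their family, and in the other lists the called genes are Mme, Scg2, Gata4, Foxa1 and Foxa2.

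The promoters of the 3 hormone genes are shown because these genes fell together. Each is the 250 bases before the transcription start in RefSeq on GRCm38.p6, a build of its own that is not mixed with the mm9 probe positions; 6 of the 8 genes matched that table. The letters GTTGCC were searched on both strands, as were the letters GTTACC; each is an RFX site, as 1 arm of the X-box that RFX factors bind. Also searched on both strands were TGTTTAC for FOXA factors, GATAAG for GATA factors and, as an E-box of the NEUROD type, CATCTG. None of these motifs contains another, and capitals mark matches.
Gcg promoter, chr2:62483654-62483903, - strand: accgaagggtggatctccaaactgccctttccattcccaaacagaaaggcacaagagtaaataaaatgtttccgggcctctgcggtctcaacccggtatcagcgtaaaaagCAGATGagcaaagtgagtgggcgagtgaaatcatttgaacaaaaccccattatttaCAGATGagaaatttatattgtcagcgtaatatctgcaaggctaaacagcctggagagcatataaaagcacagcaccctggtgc
Gip promoter, chr11:96024295-96024544, + strand: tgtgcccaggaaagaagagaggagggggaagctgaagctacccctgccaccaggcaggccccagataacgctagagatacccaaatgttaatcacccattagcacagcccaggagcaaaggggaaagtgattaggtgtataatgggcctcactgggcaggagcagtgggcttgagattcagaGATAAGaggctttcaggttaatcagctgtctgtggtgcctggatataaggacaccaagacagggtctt
Sct promoter, chr7:141279134-141279383, - strand: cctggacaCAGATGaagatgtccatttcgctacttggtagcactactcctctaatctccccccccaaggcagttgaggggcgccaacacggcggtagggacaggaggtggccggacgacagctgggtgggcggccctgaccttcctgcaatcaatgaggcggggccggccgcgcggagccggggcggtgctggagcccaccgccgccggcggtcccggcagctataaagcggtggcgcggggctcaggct
The Gcg window held 2 matches to the E-box, 139 to 134 and 83 to 78 bases before the start, and the Sct window 1, at 242 to 237 bases; 14.4% of all 32851 windows of this length hold this E-box. The Gip window held 1 match to GATAAG, 68 to 63 bases before the start, letters found in 6.55% of windows. The RFX letters GTTGCC and then GTTACC, found in 10.4% and 6.06% of windows, were in none of the 3 hormone windows, and GTTACC was in that of Glp2r. The FOXA letters, found in 3.17% of windows, were in none of the 6. A match is a description of letters, not of binding.

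The genes whose levels followed each hormone most closely over the 8 arrays were taken by Pearson correlation among 23164 genes. For Gcg the first 4 were Nts (0.998), Cck (0.998), Ghrl (0.998) and Sst (0.997). For Gip they were Cck, Ghrl, Nts and Sst, and next Nr2f6 (0.993), a nuclear receptor gene with a difference of -0.28. For Sct they were Nts, Sst, Lipf (0.992), Cck and Sucnr1 (0.989). These correlations follow mostly from the step between the groups, since the arrays form 2 groups of 4. Nts (neurotensin), Cck (cholecystokinin), Ghrl (ghrelin) and Sst (somatostatin) are themselves gut hormone genes. Of 8 other gut hormone genes listed, 7 were measured, 5 fell (these 4 and Insl5) and Tac1 rose, with a median difference of -5.16. Pyy, at -2.65, did not pass (limma adjusted p 0.127). Pyy stood at 1.41 on knockout array 1, -2.78 to -2.56 on the other knockout arrays and 0.35 to 1.38 on control arrays. Lipf, a gastric lipase gene, fell by 2.37 (limma adjusted p 2.6e-04) and Sucnr1, the succinate receptor gene, by 1.71 (limma adjusted p 4.8e-05).

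Markers of other tissues also moved between the groups. Of 6 endocrine pancreas genes, Iapp (amylin), Ins1 and Ins2 (insulin) were measured and all 3 fell, with differences of -3.39, -2.27 and -0.78 (limma adjusted p 2.9e-05, 0.0093 and 0.023); Ppy and Slc30a8 were above background on 1 control array each, and G6pc2 on none. The mean level of the 3 measured genes lay between -1.38 and -0.50 on control and between -3.27 and -2.89 on knockout arrays. Gcg is also an islet gene, and the part of islet RNA in its fall was not tested. Of 5 measured exocrine pancreas genes 0 were called, with a median of -0.71, where 4.92% of all genes tested were called. All 5 were well above background on every control and every knockout array. Their mean level varied between samples, from -0.76 to 0.51 on control and from -1.47 to -0.03 on knockout arrays. The other listed gene, Ptf1a, was above background on 0 arrays. Of 7 stomach genes 6 were higher on the knockout arrays, among them Gkn2, at least 2322-fold, with a mean level of the list between -5.36 and -4.25 on control and between 1.93 and 2.61 on knockout arrays. The part of this in the levels of the hormones and receptors was not tested. Of the 7 epithelial genes, Fabp2 (-0.42, limma adjusted p 0.048) and Lct (-0.75, limma adjusted p 0.030) were lower and 5 did not pass, with a median of -0.17.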

How the data were processed

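The authors' deposited scanner files give an intensity per spot, read with Agilent Feature Extraction 10.10.1.1 on a grid built for mm9, per the file headers. The processed intensity is background-subtracted within the array and not scaled between arrays, per the file headers. Flags of 0 or 1 for well above background and outlier spots come from the same files. The authors' deposited series matrix holds an intensity on a linear scale; from its values, every column has a median of 129.6 and follows the spot medians in rank, and how it was normalized is not given in the sources used here.

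Control and outlier spots were left out, spots of a probe averaged as log2, and each array's 75th percentile subtracted. Probes well above background on all arrays of a group were kept (a probe counting as detected where at least as many of its spots are flagged as not), the brightest standing for its gene. Of the genes tested, 110 lacked a value on some array; none is reported here with a missing value. Groups were compared with limma 3.58.1 in R 4.3.3 (lmFit, eBayes, two-sided), adjusted by Benjamini-Hochberg over all 23282 genes, or over 31668 probes where a gene's further probes are given. A gene dim on all arrays of 1 group has a fold as a bound: the bright mean over the mean, per dim array, of its own signal or the lowest signal well above background, whichever is higher. Such a bound holds for this signal and this floor, not for another background correction. The fit was tested on simulated data. Genes were named by symbol, RefSeq accession or synonym through a GRCm38 table. The genes, lists, and rule for like genes were chosen with earlier results of these data known. The rule names the 8 genes, the called list genes with a few more, and, outside the 8, the 5 genes most correlated with each hormone gene; 1 gene of the lists is not reported here.

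Alternatives covered background, scaling, filter, probes per gene, matrix values, slide row, replicate number, variance prior, and leaving out each array. Replicate numbers do not pair the samples.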

Additional observations from a re-analysis of the deposited data

Results flagged for a closer look

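In 120 groups of 4 values, covering the 13 probes and 47 other genes named, 6 had 1 array far from the other 3; chance gives about 1 in 20, or 6 groups, and none of the 26 groups of the hormone and receptor probes was among them. Pyy, another gut hormone gene, stood at 1.41 on knockout array 1 against -2.78 to -2.56 on the other knockout arrays; on the same array Gcg stood at -6.47, Gip at -6.33 and Sct at 5.20. Rfx6 stood at -3.74 on control array 4 against -2.98 to -2.91. Gata4 stood at 0.96 on knockout array 2 against 1.33 to 1.37, and Neurog3 at 0.72 on knockout array 4 against 1.09 to 1.15. On control array 2, Sst stood at 1.75 against 1.98 to 2.03 and Gnas at 5.63 against 5.77 to 5.80. No cause was tested for any of these.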

How the results depend on the processing

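Gcg, Gip and Sct kept their direction and their call under all alternatives that could test them, and the 5 receptor genes stayed without a call and kept their sign under all 19. With only probes above background on all 8 arrays, Gcg and Gip could not be tested. The Gcg difference ran from -8.63 to -5.06, that of Gip from -8.79 to -5.48 and that of Sct from -1.65 to -1.41. The values of Gcg and Gip nearest to 0 are those of normexp and of the matrix values, for which no cause was tested. Normexp was run with an offset of 50 units added to every signal. Without any 1 array in turn, Gcg lay between -8.63 and -8.46, Gip between -8.79 and -8.42 and Sct between -1.62 and -1.49. The adjusted p of Gipr ran from 0.11 to 0.327.

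Counts over all genes moved more than the hormones. Median centring called 253 genes lower and 545 higher, no filter 202 lower and 298 higher over 36083 genes, and quantile normalization 469 lower and 624 higher. Normexp called 734 lower and 542 higher, and a trended and robust prior 828 lower and 613 higher, against 602 lower and 543 higher in the analysis reported; the causes were not tested. Median centring shifted the median difference of all genes from -0.05 to 0.01. With any 1 array left out, and so fewer samples, lower genes numbered 233 to 593 and higher genes 346 to 515. The lower count changed by over 1.5 times without control array 1 (240), 3 (313) or 4 (360) or knockout array 1 (245) or 2 (233), and the higher count without control array 1 (354) or knockout array 1 (350) or 2 (346). Samples with the same replicate number had correlations of their deviations of -0.07, -0.17, 0.07 and -0.41, and were not all over 0.1, so no pairing was taken from the numbers. With the replicate block 148 genes were lower and 268 higher, and Sct kept its call (limma adjusted p 0.0070). The slide was not a block, as there was 1; with the slide row as a block Gcg differed by -8.53, Gip by -8.70 and Sct by -1.65. The signal over background limits Glp1r and the dimmest Sctr probe.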
